A study of Homo sapiens with 6 samples.

Results

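The 48 genes described here are interferon-stimulated genes and the factors that regulate them, taken by symbol from a named list, and all 48 were found among the 59050 entries of the expression table. They were measured by bulk RNA-seq in human foreskin fibroblasts (HFF), cultured skin fibroblasts. The stable lines carried a pLNC ER:RAS (G12V) vector, in which oncogenic H-RAS is fused to a hormone-binding domain of the oestrogen receptor. The virus was packaged in HEK293T cells, used on cells at about passage 18, and resistant clones were selected with 200 µg/ml neomycin. The design text describes these lines once and names no other cells, so the control cells are taken to carry the transgene as well. One group of 3 libraries came from cells given 100 nM 4-hydroxytamoxifen (4-OHT), which activates the fusion, and harvested in oncogene-induced senescence a week later. The other 3 libraries are labelled DMSO, the vehicle, with no time or dose in the labels. Nothing in the labels says whether replicates were separate cultures or how many clones they held. The p-values therefore speak only to the spread among these 6 samples, and part or all of it may be technical.

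Interferons are secreted antiviral cytokines. Cytosolic sensors of foreign or misplaced RNA and DNA turn on their genes through IRF3 and IRF7. The secreted protein then acts through cell-surface receptors, JAK kinases and a complex of STAT proteins with IRF9, which binds the interferon-stimulated response element (ISRE) in front of the induced genes. IRF1 acts on overlapping elements. Many induced genes keep a basal level in fibroblasts without added interferon, and some are known to change in senescent cells as part of their inflammatory secretory state.

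The element these genes are known for was looked for in their promoters, from 250 bases before to 50 bases after the RefSeq start (GRCh38.p14). Such windows were found for 37 of the 48 genes, 1 of them under the newer symbol of DDX58. The ISRE letters, GAAA and GAAA with any 2 bases between them, searched on both strands, occurred in 25 of the 37 (67.6%), against 4.38% of the 27305 genes with a window (3.57% of 35116 windows). The letters TTCNNNGAA, the form of the gamma-activated sequence (GAS) bound by STAT dimers, occurred in 10 of the 37 (27.0%), against 9.38% of all genes with a window (7.66% of windows). The 2 motifs can overlap. The last 160 bases before the first listed start are shown for 3 IFIT genes, which did not move alike, for ISG15, whose groups overlapped, and for IRF1, the called gene with the largest increase. Capitals mark the ISRE letters, and in IRF1 the GAS letters.
IFIT1: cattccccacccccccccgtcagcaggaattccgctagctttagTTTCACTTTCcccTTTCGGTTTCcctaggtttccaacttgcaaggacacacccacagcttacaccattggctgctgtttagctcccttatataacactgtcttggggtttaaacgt
IFIT3: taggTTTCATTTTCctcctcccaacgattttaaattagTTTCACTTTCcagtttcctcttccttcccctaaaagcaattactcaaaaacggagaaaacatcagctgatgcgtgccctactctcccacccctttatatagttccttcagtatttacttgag
IFIT5: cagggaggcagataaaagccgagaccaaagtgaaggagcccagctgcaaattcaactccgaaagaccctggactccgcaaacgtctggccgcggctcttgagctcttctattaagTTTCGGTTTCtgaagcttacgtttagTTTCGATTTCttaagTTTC
ISG15: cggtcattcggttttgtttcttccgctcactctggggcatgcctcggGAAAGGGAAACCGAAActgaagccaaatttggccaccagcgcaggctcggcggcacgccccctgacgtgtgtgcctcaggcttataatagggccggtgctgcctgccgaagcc
IRF1: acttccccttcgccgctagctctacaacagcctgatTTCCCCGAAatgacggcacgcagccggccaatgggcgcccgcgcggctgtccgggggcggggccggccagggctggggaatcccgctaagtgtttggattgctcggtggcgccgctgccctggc

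These stretches are chr10:89392463-89392622, chr10:89327837-89327996, chr10:89414408-89414567 and chr1:1013337-1013496 on the plus strand, and chr5:132490774-132490933 on the minus strand. In IFIT1 the matches began 116 and 103 bases before the start, in IFIT3 156 and 122 bases before it, all read from the opposite strand. In IFIT5 they lay 45, 19 and 4 bases before the start, the last of them running on past it. ISG15 held 2 overlapping matches, 113 and 107 bases before the start, and IRF1 held no ISRE letters but 1 GAS match 124 bases before it. A match of letters is a description of the sequence, and no binding was measured here.

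Levels are in TPM, which are scaled by transcript length, so that levels of different genes can be compared. Each log2 fold change is the mean of log2(TPM + 1) in 4-OHT less that in DMSO, a scale that understates the change of low genes, and a gene is called where limma's adjusted p is at or under 0.05. In bulk RNA, fewer cells of a type and less RNA per cell cannot be told apart. The interferon genes did not move as a block. IFIT1, UBA7, IFIT2, GBP2 and EPSTI1 fell by more than 1 log2 unit, IRF1 rose by more than 1, and OAS2, ISG20 and SAMD9L rose by less. Of the 48 genes, 44 reached a mean of 1 TPM over the 6 libraries and were tested. Of these 44, 16 fell, where 29.9% of all 15272 genes tested did, and 9 rose, where 19.8% did. That makes 25 of 44 called (56.8%) against a background of 49.6%, a share near that of all genes. At a change of at least 1 log2 unit 5 fell (11.4%, background 8.21%) and 1 rose (2.27%, background 4.22%). Under median-of-ratios scaling, which moved the log2 fold changes of all genes up by a median of 0.113, 12 fell (background 23.5%) and 10 rose (26.5%). Quantile normalization gave 15 lower (background 23.6%) and 11 higher (23.9%).

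The median log2 fold change of the 44 was -0.13, against -0.09 over all genes tested, and the median size of the change without its sign was 0.30 against 0.33. In 28 of the 44 (63.6%) the 3 libraries of a group lay entirely on one side of the other 3, as in 59.0% of all genes tested. These 28 are the 25 called genes with HERC6, SAMD9 and PARP14. The members' log2 fold changes ran from -2.28 to 1.52, and in the plot of the distribution the outermost bins on both sides hold other genes but no member. The summed level of the 48 genes ran from 1822 to 1873.6 TPM in 4-OHT and from 2000.7 to 2093.2 in DMSO, and LY6E alone made up much of it.

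**Figure D1:**
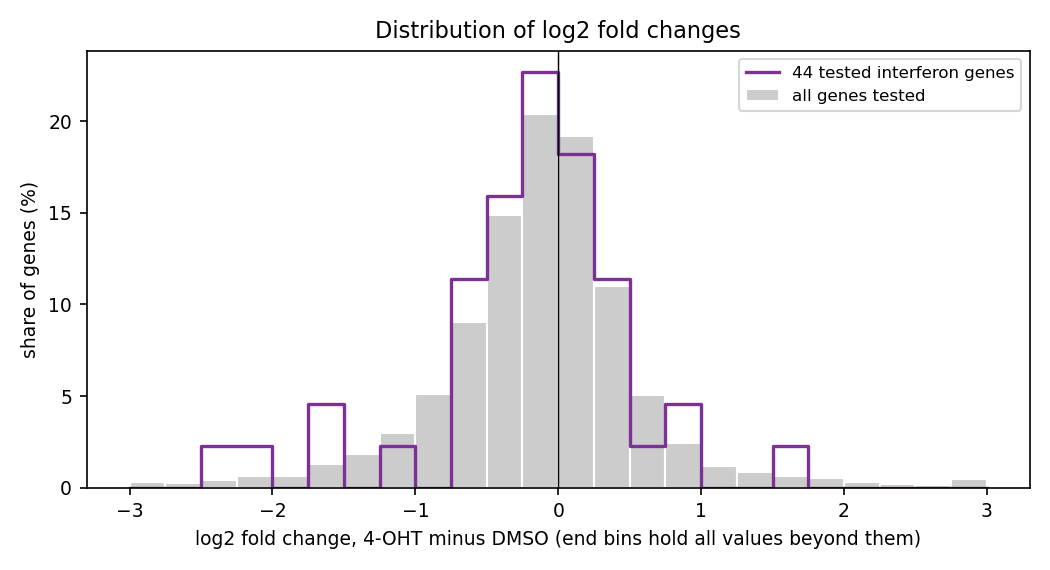
Share of genes (%) per bin of 0.25 log2 units of fold change, 4-OHT minus DMSO. Grey bars are all 15272 genes tested and the line is the 44 tested interferon genes, whose median of -0.13 lies close to the -0.09 of all genes.

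Levels spanned a wide range. LY6E had the highest mean, followed by IFI16 and IFI6, the 3 members above 100 TPM. Of the others 35 had a mean from 5 to 100 TPM and 10 stayed under 5 TPM. Called genes were found at every level. They were 3 of the 10 genes under 5 TPM (of 6 tested), 8 of 14 from 5 to 20 TPM and 7 of 15 from 20 to 50 TPM. The share was highest at 50 TPM or more, with 7 of 9. Of all genes tested, at any level, 49.6% were called. The median size of the change was 0.55 log2 units from 5 to 20 TPM and 0.25 at 50 TPM or more.

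**Figure D2:**
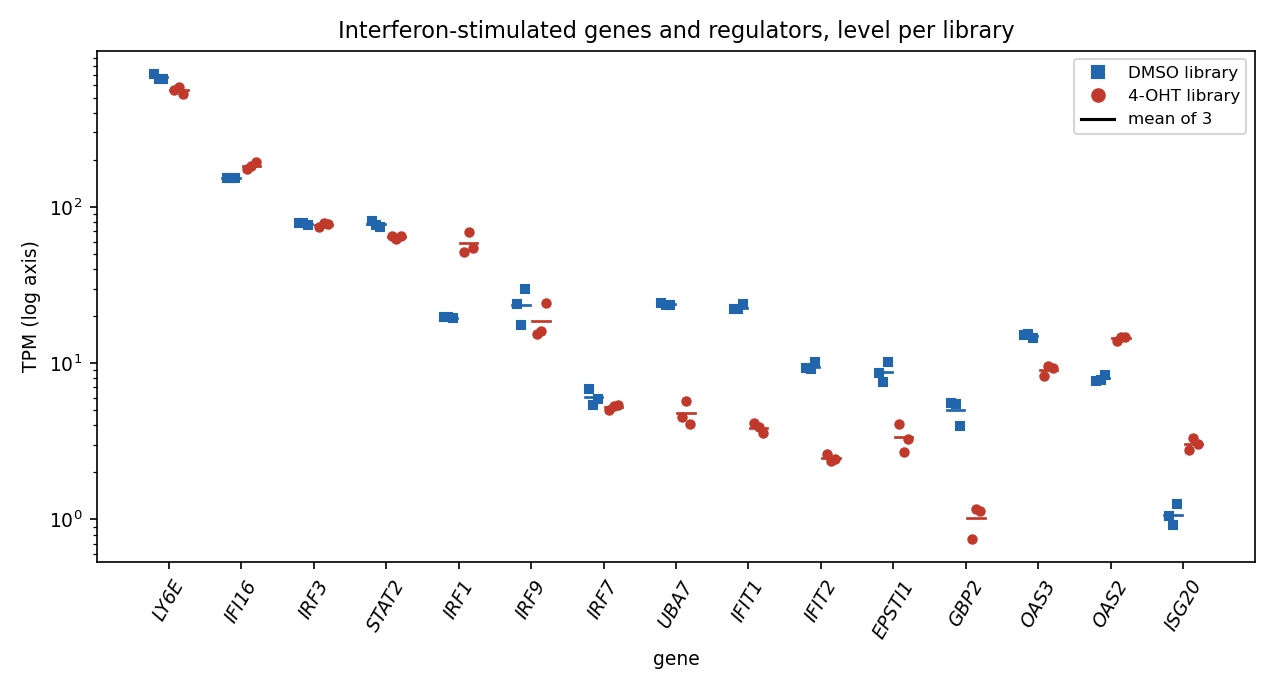
TPM per library on a log axis for 15 genes, with DMSO libraries as squares, 4-OHT libraries as circles and a bar at the mean of 3. UBA7, IFIT1, IFIT2, EPSTI1 and GBP2 lie apart and lower in 4-OHT and IRF1, OAS2 and ISG20 apart and higher, while the groups of IRF3, IRF7 and IRF9 overlap.

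Sensors of RNA and DNA came first in the pathway and changed little. DDX58 encodes RIG-I, which detects RNA with a free triphosphate end. It was read at 17.1, 16.6 and 18.4 TPM in 4-OHT, against 12.8, 12.5 and 12.6 in DMSO (0.43, SE 0.0735, adjusted p = 0.0025), each 4-OHT library above each DMSO library. IFI16, a nuclear and cytosolic DNA sensor, was at 174, 182 and 193 TPM in 4-OHT and 154, 154 and 152 in DMSO (0.25, adjusted p = 0.00391). It rose too, though by a ratio of only 1.19. IFIH1, which encodes the long-RNA sensor MDA5, stood at 10.9 ± 1.45 against 9.80 ± 0.504 TPM (SD, n = 3; 0.13, adjusted p = 0.362). DDX60, a helicase linked to RIG-I signalling, stood at 8.72 ± 1.24 against 9.02 ± 1.03 (adjusted p = 0.801). Both groups of libraries overlapped in these 2 genes.

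Among the 5 transcription factors IRF1 rose, STAT2 fell and the other 3 were not called. IRF1 (chromosome 5, 132481609 to 132490798, GRCh38) was read at 51.6, 69.5 and 54.5 TPM in 4-OHT, against 19.6, 19.7 and 19.4 in DMSO. The DMSO libraries were nearly equal, and the lowest 4-OHT library lay well above them (ratio 2.99, log2 fold change 1.52, SE 0.110, adjusted p = 3.54e-05). An annotated gene on the opposite strand, C5orf56, shares exon sequence with IRF1, and it was at 5.63, 6.29 and 8.16 TPM in 4-OHT and 6.02, 5.84 and 4.80 in DMSO. STAT2, a subunit of the complex that carries the type I interferon signal to the ISRE, was at 64.9, 62.0 and 65.1 TPM in 4-OHT and 81.5, 77.0 and 74.1 in DMSO. The groups did not overlap (-0.27, adjusted p = 0.00476), but median-of-ratios scaling ended the call (-0.15, adjusted p = 0.0523, with 0.00352 to 0.0523 over the alternatives). IRF9, the DNA-binding subunit of that complex, was at 15.4, 16.1 and 24.1 TPM in 4-OHT and 23.8, 17.5 and 29.7 in DMSO. Its libraries spread widely within each group, with replicate 3 the highest of both (-0.34, adjusted p = 0.256). The difference was -0.16 without DMSO replicate 3 and -0.53 without 4-OHT replicate 3 or without DMSO replicate 2, and it was called in none of the alternatives (adjusted p 0.0616 to 0.588). It was -0.22 without 4-OHT replicate 1 and under median-of-ratios scaling.

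IRF3, which is present before infection and is activated by phosphorylation, was at 74.3, 78.3 and 77.8 TPM in 4-OHT and 78.4, 79.0 and 76.3 in DMSO, with overlapping groups (-0.02, SE 0.0455, adjusted p = 0.735). IRF7, which amplifies the response once it is induced, was at 5.02, 5.30 and 5.42 against 6.81, 5.41 and 5.93 TPM (-0.17, adjusted p = 0.254). BCL2L12, whose exons overlap IRF3 on the opposite strand, was at 19.3 ± 0.979 against 38.6 ± 4.7 TPM. In all, 17 of the 48 genes share exon sequence with another annotated gene, and without the strand setting reads of opposite-strand pairs cannot be told apart. The 2 factors that act upstream of the interferon genes were thus not called. The level of mRNA says nothing of the phosphorylation through which both act.

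ISG15 is a ubiquitin-like protein that is joined to other proteins by an enzyme cascade, in which UBA7 is the activating enzyme, UBE2L6 the conjugating enzyme and HERC5 the main ligase, while USP18 removes it. UBA7 fell and no other member of the system was called. UBA7 (chromosome 3, 49805207 to 49813946) was read at 4.49, 5.74 and 4.07 TPM in 4-OHT, against 24.1, 23.7 and 23.4 in DMSO. It was 4.98-fold lower (log2 fold change -2.11, SE 0.118, adjusted p = 9.75e-06), and its groups lay far apart. ISG15 itself was at 51.6, 59.3 and 52.4 TPM in 4-OHT and 67.0, 56.2 and 48.9 in DMSO, where the spread within DMSO covered all 4-OHT libraries (-0.07, adjusted p = 0.667). HERC5 (2.29 ± 0.627 against 1.91 ± 0.452 TPM) and USP18 (5.83 ± 0.662 against 5.09 ± 0.739) overlapped between groups. HERC6, a relative of HERC5, was at 6.50, 6.55 and 5.88 TPM in 4-OHT and 7.77, 7.16 and 11.5 in DMSO (-0.40, adjusted p = 0.0896). Without DMSO replicate 3, the highest library, it was -0.21 (adjusted p = 0.18), and under quantile normalization -0.16, with adjusted p from 0.0527 to 0.492 over the alternatives.

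UBE2L6, outside the 48 genes and singled out after its values were seen, was at 143, 151 and 151 TPM in 4-OHT, against 47.3, 105 and 112 in DMSO. DMSO replicate 1 was far below the other 2, and the difference was not called (0.84, adjusted p = 0.0527). Without that library it was smaller, 0.45, and was called (adjusted p = 0.00122). It was also called without DMSO replicate 2 (adjusted p = 0.046) or 3 (0.0348), with the replicate number as a block (0.0371) and under median-of-ratios scaling (0.96, 0.0325). The highest adjusted p over the alternatives was 0.206, in the unfiltered table. Each 4-OHT library was above each DMSO library in UBE2L6 and below each in UBA7.

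The IFIT proteins bind viral RNA, IFIT1 in particular RNA that lacks the methyl mark of cellular caps, and IFIT2 and IFIT3 bind IFIT1 as partners. IFIT1, IFIT2 and IFIT3 fell by different amounts, and IFIT5 was not called. IFIT1 (chromosome 10, 89392546 to 89406486) was at 4.12, 3.93 and 3.56 TPM in 4-OHT, against 22.1, 22.2 and 23.8 in DMSO. That was 5.87-fold lower (-2.28, SE 0.0882, adjusted p = 1.87e-06), the largest change in size among the 44 genes. IFIT2 (chromosome 10, 89283694 to 89309276) was at 2.62, 2.37 and 2.43 TPM in 4-OHT, against 9.26, 9.17 and 10.1 in DMSO, 3.85-fold lower (-1.60, adjusted p = 2.04e-05). IFIT3 was at 25.1, 24.8 and 25.1 TPM in 4-OHT, against 36.7, 38.6 and 38.5 in DMSO (-0.58, SE 0.0547, adjusted p = 0.000129). All 3 showed groups far apart relative to their spread.

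IFIT5 was at 23.2, 25 and 26.6 TPM in 4-OHT, against 23.3, 25.6 and 24.6 in DMSO (0.02, SE 0.0746, adjusted p = 0.814). Its promoter, like those of IFIT1 and IFIT3, holds the ISRE letters printed above, and its level in DMSO was close to that of IFIT1. In 4-OHT IFIT5 and IFIT3 were the most abundant of the family and IFIT2 the least. Exons of IFIT2 overlap those of LIPA on the opposite strand, and LIPA was at 64.3, 61.7 and 59.3 TPM in 4-OHT and 156, 66.5 and 167 in DMSO. The strand setting of the counting is not given. Whether reads of LIPA were counted in IFIT2 was not tested.

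Of the enzymes that bind double-stranded RNA, OAS2, EIF2AK2 and ADAR rose and OAS3 fell. The OAS proteins make short chains of adenylate that activate RNase L. OAS2 was at 13.9, 14.7 and 14.6 TPM in 4-OHT, against 7.68, 7.85 and 8.44 in DMSO (0.78, SE 0.0807, adjusted p = 0.00022). OAS3 was at 8.31, 9.59 and 9.25 in 4-OHT, against 15.1, 15.3 and 14.5 in DMSO (-0.67, SE 0.0847, adjusted p = 0.000583). The order of the 2 genes was thus inverted: in every DMSO library OAS3 was above OAS2, and in every 4-OHT library OAS2 was above OAS3. OASL, which lacks that enzyme activity, did not reach 1 TPM as a mean and was not tested (0.872, 1.13 and 0.905 against 0.529, 0.775 and 1.06).

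EIF2AK2 encodes PKR, a kinase that stops translation when double-stranded RNA is present. It was at 32.9, 31.8 and 31.9 TPM in 4-OHT, against 24.3, 24.2 and 23.5 in DMSO (0.41, adjusted p = 0.000865). ADAR, which edits adenosine to inosine in double-stranded RNA and so keeps cellular RNA from the sensors, was at 104, 102 and 109 TPM in 4-OHT, against 83.5, 84.4 and 77.6 in DMSO (0.35, adjusted p = 0.00127). In both genes each 4-OHT library exceeded each DMSO library, by ratios of 1.34 and 1.28 between the means.

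Among effectors that act on nucleotides, nucleic acids or translation, ISG20 and SAMD9L rose. ISG20, an exonuclease that degrades single-stranded RNA, was at 2.77, 3.33 and 3.03 TPM in 4-OHT, against 1.05, 0.919 and 1.25 in DMSO (ratio 2.84, log2 fold change 0.96, adjusted p = 0.00153). SAMD9L, a restriction factor with growth-limiting activity, was at 12.7, 15.3 and 14.1 TPM in 4-OHT, against 8.23, 8.81 and 8.33 in DMSO (0.67, adjusted p = 0.000975). Its relative SAMD9 was at 5.82, 7.05 and 6.99 against 8, 7.36 and 8.28 TPM (-0.22, adjusted p = 0.13), where the groups did not overlap but the test was not passed. RSAD2, which encodes viperin, and CMPK2, a mitochondrial nucleotide kinase that works with it, were too low to be tested. RSAD2 was read at 0.0947, 0.285 and 0.241 TPM in 4-OHT, against 0.271, 0.557 and 1.21 in DMSO, and CMPK2 at 1.27, 0.747 and 0.564 and at 0.151, 0.561 and 0.772. Both genes overlapped between groups, and their exons overlap each other on opposite strands.

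The interferon-induced GTPases fell or were not called. GBP2, a guanylate-binding protein that acts against intracellular pathogens, was at 0.75, 1.17 and 1.14 TPM in 4-OHT, against 5.57, 5.46 and 3.95 in DMSO, 4.90-fold lower (-1.56, SE 0.175, adjusted p = 0.000317). GBP1 was at 33.2, 36.1 and 32.1 in 4-OHT, against 42.0, 43.3 and 46.4 in DMSO (-0.37, adjusted p = 0.0038). MX1, which traps viral ribonucleoproteins, overlapped between groups (26.0 ± 2.12 against 28.3 ± 2.16 TPM, adjusted p = 0.299). MX2 was at 3.43, 3.75 and 4.03 in 4-OHT, against 7.41, 4.88 and 5.13 in DMSO (-0.51, adjusted p = 0.036). The MX2 call was fragile. It was lost under both scalings (adjusted p = 0.0737 and 0.242), in the unfiltered table (0.11), with the replicate number as a block (0.0684) and without any library but DMSO replicate 2 (0.0509 to 0.0966), with a range of 0.0353 to 0.242 over the alternatives.

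Effectors of membranes, mitochondria and virus entry fell in 3 of 5 genes, where 29.9% of all genes tested fell. LY6E, a surface protein that blocks fusion of some coronaviruses, was the most abundant member. It was at 557, 584 and 528 TPM in 4-OHT, against 708, 660.5 and 655 in DMSO (-0.28, adjusted p = 0.00318), with the groups apart. The gene LY6E-DT, whose exons overlap it on the opposite strand, was at 4.26, 4.50 and 3.35 TPM against 8.54, 8.11 and 9.55. PLSCR1, a phospholipid scramblase, was at 27.7, 25.2 and 27.4 TPM in 4-OHT, against 41.7, 36.0 and 37.3 in DMSO (-0.50, adjusted p = 0.00145). IFI6, a mitochondrial and endoplasmic reticulum protein, was at 114, 109 and 111 in 4-OHT, against 138, 120.4 and 140.3 in DMSO (-0.25, adjusted p = 0.0151). The IFI6 call ended with median-of-ratios scaling (-0.13, adjusted p = 0.141), in the unfiltered table (0.0574) and without DMSO replicate 1 (0.0501), in a range that began at 0.00276. BST2 (tetherin), which holds budding virus at the cell surface, was at 2.57 ± 1.00 against 2 ± 0.589 TPM and IFI27 at 3.23 ± 0.208 against 3.15 ± 0.862, both with overlapping groups.

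In the group of TRIM and PARP proteins 3 of 6 genes fell, where 29.9% of all genes tested did. TRIM22, an antiviral ubiquitin ligase, was at 67.4, 70.0 and 65.7 TPM in 4-OHT, against 98.7, 99.2 and 99.1 in DMSO (-0.54, SE 0.0446, adjusted p = 6.79e-05). The DMSO libraries were almost equal and all above the 4-OHT libraries. DTX3L, a ubiquitin ligase that works as a pair with PARP9, fell from 22.6 ± 0.81 to 18 ± 0.763 TPM (-0.31, adjusted p = 0.00734). PARP9 was at 19.8 ± 1.80 against 22.2 ± 0.585 (-0.16, adjusted p = 0.145). The exons of this pair overlap on opposite strands. SP100, a component of nuclear bodies, was at 75.5, 76.2 and 78.2 against 86.3, 92.3 and 92.2 TPM (-0.23, adjusted p = 0.00574), which median-of-ratios scaling took over the threshold (-0.11, adjusted p = 0.0794, against 0.00328 at the lowest). PARP14 (23.8 ± 1.01 against 21.9 ± 1.5) and TRIM21, an intracellular antibody receptor (30.3 ± 1.70 against 31.8 ± 1.92), were not called.

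Of 5 other induced genes EPSTI1 fell and XAF1 rose. EPSTI1 was at 4.05, 2.71 and 3.29 TPM in 4-OHT, against 8.62, 7.59 and 10.2 in DMSO, 2.63-fold lower (-1.18, SE 0.159, adjusted p = 0.000802). XAF1, which opposes the apoptosis inhibitor XIAP, was at 24.7, 20.9 and 26.4 in 4-OHT, against 18.3, 18.8 and 18.5 in DMSO (0.35, adjusted p = 0.0186). Its adjusted p exceeded 0.05 in the unfiltered table (0.0579) and without 4-OHT replicate 1 or 3 or DMSO replicate 1 (0.0522 to 0.0572), against 0.00488 at the lowest. IFI44L was at 0.0109, 0.0374 and 0.107 TPM in 4-OHT, against 0.765, 1.23 and 1.10 in DMSO, so that the groups lay apart at a level too low to be tested. IFI44, its neighbour, was at 23.9 ± 3.83 against 23.2 ± 1.70 TPM, and IFI35 at 31.4 ± 2.60 against 34.7 ± 3.22. Neither was called.

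**Figure D3:**
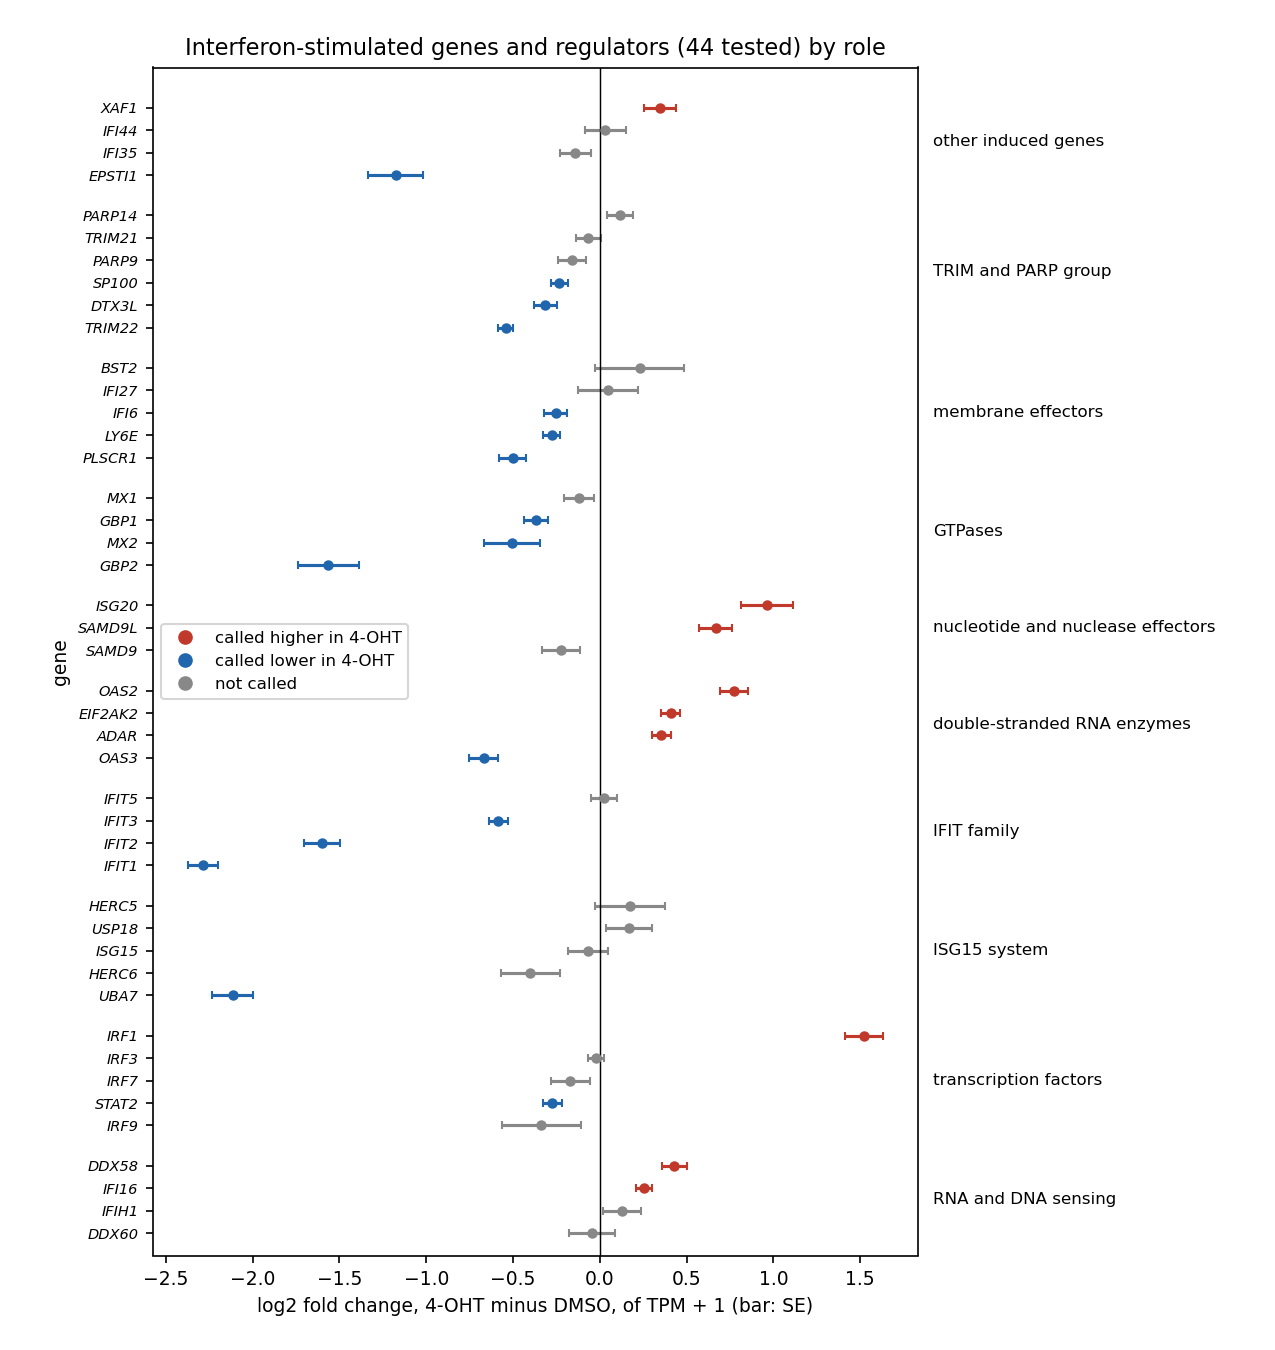
Log2 fold change (4-OHT less DMSO, from TPM + 1) for the 44 tested genes, grouped by role, with bars of 1 SE; red genes were called higher, blue lower and grey not called. Calls of both directions stand side by side, from -2.28 for IFIT1 to 1.52 for IRF1.

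Several of these genes are close neighbours that arose by duplication, and neighbours often differed. Along chromosome 10 the tested genes lie in the order IFIT2, IFIT3, IFIT1 and IFIT5, with log2 fold changes of -1.60, -0.58, -2.28 and 0.02. IFIT1 and IFIT5, at the ends of this range, are 8099 bases apart. On chromosome 12 OAS3 and OAS2 are 5145 bases apart on the same strand, and the first fell (-0.67) while the second rose (0.78). SAMD9 and SAMD9L, 12031 bases apart on chromosome 7, stood at -0.22 (not called) and 0.67. GBP1 and GBP2, 40771 bases apart on chromosome 1, both fell (-0.37 and -1.56). MX2 and MX1 (10913 bases apart on chromosome 21) stood at -0.51 and -0.12, and HERC6 and HERC5 (14005 bases apart on chromosome 4) at -0.40 and 0.17. The differences between neighbours were not tested as such.

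**Figure D4:**
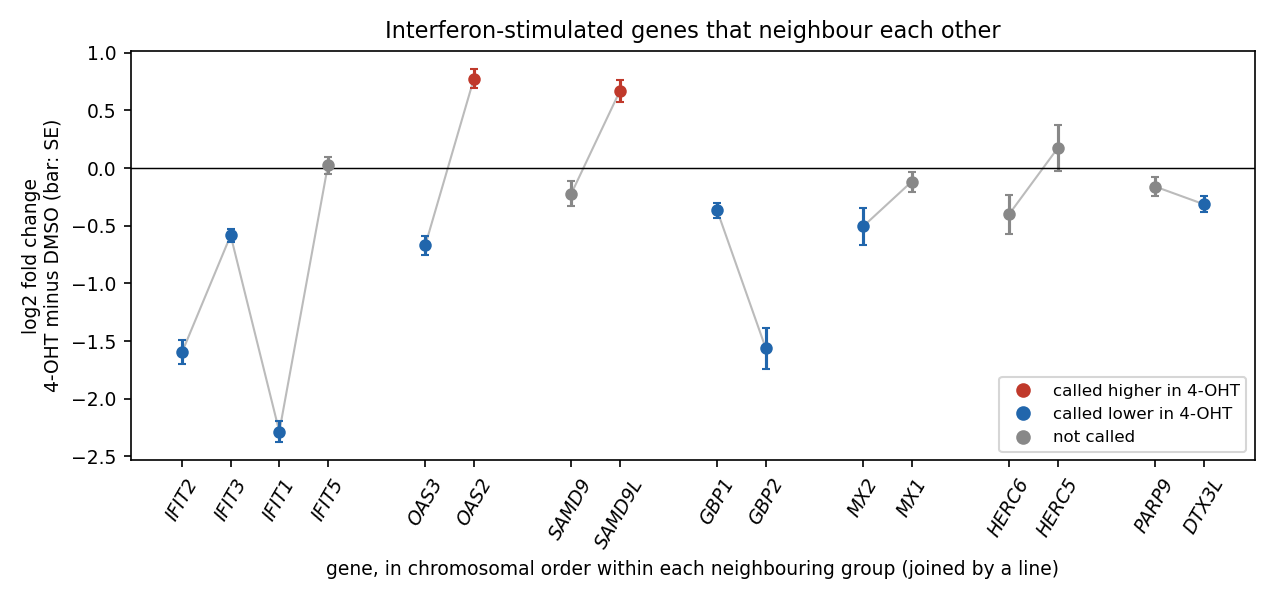
Log2 fold change, 4-OHT minus DMSO, of genes that lie within 100000 bases of each other, in chromosomal order and joined by a line within each group, with bars of 1 SE. The line from OAS3 to OAS2 crosses 0 between 2 called genes, and IFIT1 and IFIT5 lie 2.28 below and 0.02 above it.

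Calls of both directions were found with and without the promoter letters, in unequal numbers. Of the 25 genes whose window held the ISRE letters, 23 were tested, 8 fell and 2 rose, with a median log2 fold change of -0.07. Of the 12 whose window did not hold them, 11 were tested, 2 fell and 6 rose, with a median of 0.25. Over all 15272 genes tested 29.9% fell and 19.8% rose, with a median of -0.09, close to that of the genes with the letters. Genes without the letters that rose include IRF1, DDX58 and SAMD9L, and those that fell are STAT2 and SP100. Genes with the letters that fell include IFIT1, IFIT3 and OAS3, and those that rose are ISG20 and EIF2AK2. The 10 genes with the GAS letters were all tested, and 2 fell and 1 rose. Whether genes with and without the letters differed was not tested. These counts describe 34 tested genes with a window, and the windows of 11 members, IFIT2, UBA7 and OAS2 among them, are not used here.

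The wider pathway was followed in 88 further genes, of which 68 reached 1 TPM and were tested. Of these 28 fell (background 29.9%) and 16 rose (background 19.8%), with a median of -0.21. Median-of-ratios scaling gave 23 lower (background 23.5%) and 23 higher (26.5%), and quantile normalization 26 lower (23.6%) and 16 higher (23.9%). The interferon genes themselves were hardly read. IFNB1, IFNK, IFNA2, IFNL1 and IFNG were listed at 0 in all 6 libraries, and IFNA1, IFNL2 and IFNL3 did not reach 1 TPM in any library. IFNE was the exception, at 1.47 ± 0.756 against 2.01 ± 0.525 TPM (-0.32, adjusted p = 0.344). The read depth behind TPM is unknown, so no limit of detection can be given for the genes at 0.

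The receptor subunits were read above 1 TPM in every library, except IFNLR1, which stayed under 1 TPM and was not tested. IFNAR1, a subunit of the type I receptor, rose from 39.3 ± 4.17 to 53.2 ± 2.11 TPM (0.43, adjusted p = 0.00464), while its partner IFNAR2 was at 16.9 ± 1.72 against 17.4 ± 1.54. IFNGR2, a subunit of the interferon-gamma receptor, was at 152, 151 and 148 TPM in 4-OHT, against 77.1, 77.2 and 82.6 in DMSO (ratio 1.91, log2 fold change 0.92, adjusted p = 5.70e-06). IFNGR1, its partner, was at 70.9 ± 4.06 against 76.6 ± 2.53 TPM and was not called. IL10RB, shared by the receptors of interferon lambda and interleukin-10, was at 62.2 ± 1.21 against 59.0 ± 0.924, and IFNLR1, the specific lambda subunit, at 0.214 ± 0.0763 against 0.0636 ± 0.0525. Thus 1 subunit of each of the 2 receptors rose and the other was not called. Of the kinases bound to the receptors JAK2 fell (5.76 ± 0.373 against 7.87 ± 0.63 TPM, adjusted p = 0.0173), while JAK1 (91.5 ± 0.967 against 95.2 ± 4.22) and TYK2 (57.1 ± 3.54 against 53.2 ± 3.57) were not called.

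Of 9 tested genes listed as further sensors, adaptors and kinases of sensing 3 rose (background 19.8%) and 5 fell (background 29.9%). TLR3, an endosomal sensor of double-stranded RNA, fell from 2.82 ± 0.369 to 0.267 ± 0.188 TPM (-1.60, adjusted p = 0.000421), and CGAS, which makes the second messenger of cytosolic DNA, from 8.08 ± 0.449 to 3.95 ± 0.182 (-0.88, adjusted p = 0.000349). TMEM173, which encodes STING, the receptor of that messenger, fell less (49.7 ± 1.40 against 59.3 ± 2.02, log2 fold change -0.25). MAVS, the adaptor of RIG-I and MDA5, rose from 34.4 ± 1.89 to 48.9 ± 2.33 TPM (0.50, adjusted p = 0.000719). TRAF3 rose from 14.7 ± 0.066 to 25.6 ± 3.18 (0.75, adjusted p = 0.000597) and TICAM1 from 14.6 ± 1.43 to 21.6 ± 0.603 (0.54, adjusted p = 0.00191). IKBKE fell (16.4 ± 1.86 against 28.9 ± 1.15), and the related kinase TBK1 was not called (45.3 ± 1.03 against 41.0 ± 3.07). DHX58, a relative of RIG-I that regulates RNA sensing, fell from 11.6 ± 1.37 to 7.36 ± 0.43 TPM (-0.59, adjusted p = 0.00377). Genes of RNA sensing and of DNA sensing thus each included some that rose and some that fell.

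Of 10 genes listed as restraining the pathway 5 fell (background 29.9%), 1 rose (background 19.8%) and 4 were not called. SOCS1, which blocks JAK kinases, was at 13.3, 14.2 and 14.2 TPM in 4-OHT, against 43.7, 45.6 and 36.7 in DMSO (-1.52, adjusted p = 1.44e-05), and SOCS3 rose from 26.0 ± 1.80 to 37.2 ± 3.62 (0.50). IRF2, which competes with IRF1 for its sites and was singled out after its values were seen, was at 20.6, 21.7 and 26.5 TPM in 4-OHT, against 33.3, 33.6 and 29.8 in DMSO (-0.48, adjusted p = 0.00766). IRF1 thus stood below IRF2 in every DMSO library and above it in every 4-OHT library. RNASEH2A and RNASEH2B, subunits of an enzyme that removes RNA from DNA, fell from 59.4 ± 7.33 to 6.99 ± 1.52 TPM (-2.93, adjusted p = 7.61e-06) and from 21.1 ± 1.05 to 6.94 ± 0.627 (-1.48), while RNASEH2C was at 36.4 ± 3.93 against 33.9 ± 8.32.

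Among 50 further interferon-stimulated genes 40 were tested, of which 17 fell (background 29.9%) and 10 rose (background 19.8%). NMI, a binding partner of IFI35, was at 2.13, 2.53 and 2.01 TPM in 4-OHT, against 19.4, 19.6 and 19.5 in DMSO, 8.78-fold lower (-2.67, adjusted p = 1.58e-06), while IFI35 was not called. LGALS9 (0.477 ± 0.387 against 4.88 ± 0.177 TPM), SERPING1, the inhibitor of complement C1 (13.2 ± 3.75 against 44.1 ± 2.32), SLFN11 (10.9 ± 1.5 against 36.5 ± 2.39) and TDRD7 (4.98 ± 0.665 against 12.8 ± 0.745) fell. The membrane proteins that block virus entry fell by unequal amounts, IFITM1 from 219 ± 25.8 to 99.7 ± 4.78 TPM (-1.12), IFITM2 from 583 ± 16.6 to 279 ± 13.5 (-1.06) and IFITM3 from 1255.4 ± 30.1 to 1023.8 ± 27.5 (-0.29). The lysosomal thiol reductase IFI30 rose from 35.5 ± 3.35 to 104 ± 13.6 TPM (1.51, adjusted p = 3.56e-05) and CD274, which encodes the checkpoint ligand PD-L1, from 7.43 ± 0.192 to 18.6 ± 2.75 (1.21, adjusted p = 0.000151). The interferon-induced chemokines CXCL9, CXCL10 and CXCL11 did not reach a mean of 1 TPM in either group.

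**Figure D5:**
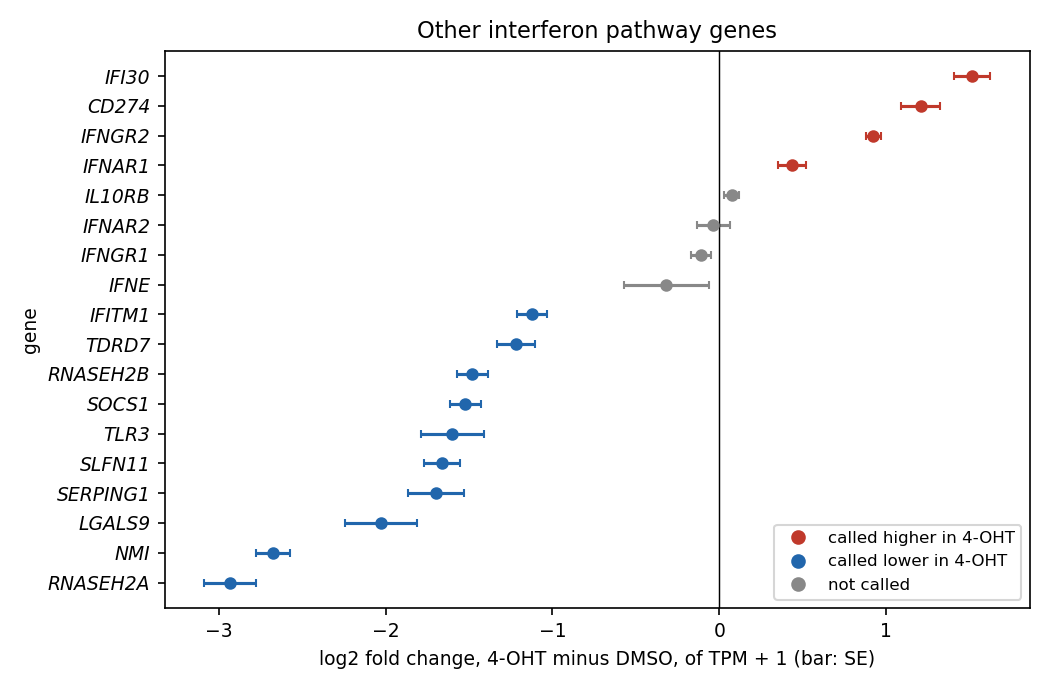
Log2 fold change (4-OHT less DMSO, from TPM + 1) of interferon ligands, receptor subunits and the 12 called pathway genes with the largest change, with bars of 1 SE. RNASEH2A, at -2.93, and NMI, at -2.67, lie lowest and IFI30, at 1.51, highest.

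The markers of the labelled cell type were present. All 10 fibroblast markers exceeded 1 TPM, with a sum of 23272.8 to 23709.1 TPM in 4-OHT and 22730.4 to 23486.7 in DMSO, most of it from VIM and other abundant genes. Within the list 5 genes fell (background 29.9%), COL3A1 (-0.91), DCN (-1.04), COL1A2 (-0.62), LUM (-0.59) and COL1A1 (-0.19). Another 4 rose (background 19.8%), FN1 (0.95), PDGFRB (0.71), THY1 (0.42) and VIM (0.15). Of 10 immune markers 1 reached a mean of 1 TPM, CD14, which rose from 2.14 ± 0.822 to 5.24 ± 1.7 TPM, and their sum was 5.6 to 11.1 TPM in 4-OHT and 2.8 to 5.19 in DMSO. ITGAM, MS4A1 and TYROBP stayed under 0.03 TPM in all libraries. Sums of 8 keratinocyte markers (32.8 to 43.2 and 37.6 to 52.5), 6 endothelial markers (1.38 to 1.87 and 2.54 to 2.8) and 5 markers of HEK293 cells (17.7 to 19.6 and 0.312 to 1.59) were also low or rested on few genes. KRT10 led the first in all libraries. In the second TEK was the highest in DMSO (1.97 ± 0.149 TPM, against 0.366 ± 0.106 in 4-OHT) and PECAM1 in 4-OHT (0.976 ± 0.197, against 0.334 ± 0.141 in DMSO). NEFL made up nearly all of the last in 4-OHT, where it was at 18.7 ± 1 TPM. SOX2 was listed at 0 throughout and LIN28B stayed at or under 0.15 TPM. The part of these lists in the results was not tested. HRAS, whose row holds reads of both the transgene and the cells' own gene, was at 1222.2 to 1315.6 TPM in 4-OHT and 908 to 956 in DMSO.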

How the data were processed

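The authors deposited 1 table of TPM for 59050 entries named by symbol in 6 libraries, made from 1 µg of total RNA with a KAPA RNA HyperPrep kit per the labels' protocols. Trimming with Trim Galore 0.6.6, the tools STAR and StringTie, and the build GRCh38 are named per the submitters' processing notes. The sources used here do not give the annotation, the strand setting or any scaling between libraries. In the deposited column of DMSO replicate 3, 1 TPM value lay slightly below 0 and was set to 0. The read depth behind TPM is unknown.

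The groups were compared by limma 3.58.1 under R 4.3.3, a linear model with moderated variances and a trend, fitted to log2(TPM + 1) where the mean over 6 libraries was 1 TPM or more. Tests were 2-sided, had no covariates and used Benjamini-Hochberg adjustment over all 15272 genes. The comparison was tested on simulated data. It called 37.9% of genes changed by 0.5 log2 units, 59.7% at 1 and 82.1% at 2. Of its 124 calls among 14844 genes 3.23% were false. Far fewer genes were changed there than were called here, so these shares need not hold for the real data. A gene not called may still have changed. Positions and exon overlaps are from GENCODE 29 (GRCh38), and promoters from RefSeq (GRCh38.p14). Of the 88 pathway genes 1 was matched by a synonym in RefSeq.

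The members, role groups and lists were chosen with earlier results of these data known. Values in every library are given for members called with a change of at least 1 log2 unit, the 5 transcription factors, the 2 most abundant members and the leading member of each role group, among others. Of the pathway genes, the ligands, receptor subunits and the 12 largest called changes are named, and others were added after their values were seen. Alternatives were 2 scalings, other filters (5 TPM or none), pseudocounts (0.1 and 0.5), no variance trend, a replicate block and leaving out each library. Same-numbered libraries showed little correlation of their deviations over all genes tested, which does not settle whether they were paired. Python 3.11.15, pandas 2.3.3, numpy 2.4.6 and matplotlib 3.10.9 were used.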

Additional observations from a re-analysis of the deposited data

How the results depend on the processing

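Of the 25 called genes among the 48, 20 kept their call and direction under each of the 14 alternatives that tested them, and none changed direction. The other 5 are STAT2, MX2, IFI6, SP100 and XAF1, described above. On leaving out each library in turn, 8 to 9 of the genes were called higher and 14 to 16 lower. Among the wider pathway genes 15 to 20 were called higher and 25 to 27 lower. The median log2 fold change of the members, -0.13, moved to -0.01 under median-of-ratios scaling, -0.06 under quantile normalization and -0.15 among genes of at least 5 TPM, and ran from -0.17 to -0.10 without each library. No sign is therefore drawn from it.

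The numbers 1 to 3 are shared between the groups. Same-numbered libraries correlated in their deviations by 0.0475, 0.00549 and 0.00664, and differently numbered ones by -0.0573 to 0.0497. A correlation over all genes tested cannot decide whether same-numbered libraries were handled together, and the labels do not say. With the replicate block 9 members were called higher and 15 lower, MX2 alone having lost its call (adjusted p = 0.0684), and 18 and 26 of the pathway genes.

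Signs turned only in genes that were not called in either fit. Under median-of-ratios scaling DDX60 stood at 0.06, IRF3 at 0.10, ISG15 at 0.05, TRIM21 at 0.05, IFNAR2 at 0.08 and IFNGR1 at 0.01. Under quantile normalization DDX60 stood at 0.16, IRF7 at 0.10, SAMD9 at 0.02 and IFNAR2 at 0.08. On leaving out each library in turn, values on both sides of 0 were found for DDX60 (-0.13 to 0.06), IRF3 (-0.04 to 0.00), ISG15 (-0.17 to 0.05), IFIT5 (-0.02 to 0.07), IFI27 (-0.07 to 0.21), IFI44 (-0.08 to 0.14) and IFNAR2 (-0.11 to 0.03). The cause was not tested. Quantile normalization added IFIH1 (0.31) and USP18 (0.42) to the genes called higher and median-of-ratios scaling added PARP14 (0.23). Among the pathway genes, where it raised the count called higher from 16 to 23 and lowered that called lower from 28 to 23, IL10RB (0.19) and UBE2L6 (0.96) were among those added. TPM without read depth limit what can be said of the 4 untested genes, OASL, RSAD2, CMPK2 and IFI44L.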
